A study of Mus musculus with 18 samples.

Results

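The genes described here are 10 members of the integrated stress response: the transcription factors Atf4, Atf5 and Ddit3, the effectors Chac1 and Trib3, the amino acid enzymes Asns, Psat1 and Phgdh, and the secreted hormones Fgf21 and Gdf15. They were chosen by gene symbol and matched to Ensembl gene IDs, which gave 11 rows of the 55469 in each table. Ddit3 alone has 2 IDs, and the second, an entry that overlaps the first, was at 0 in all 18 libraries, so the first was used. RNA-seq of the ventral and lateral prostate lobes covered 18 male mice, in 6 groups of 3. All mice were heterozygous for TRAMP, a transgene with SV40 T antigens under the prostate-epithelial probasin promoter. WT-TRAMP mice had wild-type Elac2, the gene of the nuclease that trims the 3′ ends of precursor tRNAs in the nucleus and in mitochondria. KO-TRAMP mice lacked its exon 8 where Pb-Cre, driven by the same probasin promoter, was active, so that cells other than prostate epithelium keep the gene. A537T-TRAMP mice were homozygous in every tissue for the alanine to threonine change in the protein that gives the line its name. Each line was sampled at 10 and at 30 weeks of age, and the question asked of the members was whether a mitochondrial or amino acid stress response accompanies the Elac2 changes.

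In the integrated stress response, kinases that sense amino acid shortage, misfolded protein in the endoplasmic reticulum, viral RNA or mitochondrial damage phosphorylate the translation factor eIF2. Most protein synthesis then slows while the mRNAs of Atf4, Atf5 and Ddit3 (the protein CHOP) are translated more, so much of the control of ATF4 lies outside mRNA level. ATF4 protein in turn switches on genes for amino acid synthesis, amino acid import and tRNA charging, and the prolonged response adds CHOP, TRIB3 and CHAC1. In mitochondrial disease of muscle and heart, FGF21 and GDF15 are its best known secreted products.

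ATF4 binds DNA together with a C/EBP factor at the C/EBP-ATF response element, searched for here as TGATGNAAN on both strands. RefSeq promoters (GRCm38.p6, 250 bases before to 50 bases after a gene's start) were found for 10 of the 10 members, 13 promoters in all, of which 4 held the motif, as did 3.95% of 32851 promoters. The windows below are shown because they mark which members carry that element next to the start site; each is written 5′ to 3′ on the gene's strand, with the motif in capitals.
Chac1: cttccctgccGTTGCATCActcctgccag
Trib3: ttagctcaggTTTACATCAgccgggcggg
Asns: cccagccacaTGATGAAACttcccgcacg
Fgf21: agacccccccATTGCATCAtccgtccagg
The Asns motif reads along the gene's strand and began 23 bases before the start (chr6:7693214-7693242, minus strand), and the other 3 read on the opposite strand. The Chac1 motif began 194 bases before the start (chr2:119351038-119351066, plus strand), the Fgf21 motif 140 bases before it (chr7:45615612-45615640, minus strand) and the Trib3 motif 13 bases after it (chr2:152344029-152344057, minus strand). Starts here are those of RefSeq, while the gene spans given below are from GENCODE and can start elsewhere. The Asns motif lies inside its GENCODE span and the Trib3 motif lies outside its own. A match describes these letters in these windows only, and says nothing of binding in the prostate.

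The libraries held 9380174 to 14830104 reads, where reads means estimated whole counts and not raw alignments. Values are the authors' normalized counts, each such estimated count divided by 1 factor per library and table. The 3 WT-TRAMP libraries of an age occur in 2 tables, 1 for each mutant line. Both the factors and many of the estimated counts differ there, so each line was compared with WT-TRAMP inside its own table. Libraries are called by their header numbers: 1 to 3 are from WT-TRAMP, 4 to 6 from A537T-TRAMP and 7 to 9 from KO-TRAMP mice aged 10 weeks, while 10 to 12 are from WT-TRAMP, 13 to 15 from A537T-TRAMP and 16 to 18 from KO-TRAMP mice aged 30 weeks. All 8 luminal epithelial markers were above 0 in every library, and their sums overlapped with WT-TRAMP in each comparison. In KO-TRAMP at 30 weeks the sums were 29304 to 32961 normalized counts against 26139 to 34334. The mean log2 value of these markers was 10.6 to 11.4 there, against 11.4 to 11.5 in WT-TRAMP. In A537T-TRAMP at 10 weeks the sums were 20704 to 31838 against 30960 to 33566. Elac2 counts did not separate the groups: the log2 difference from WT-TRAMP ranged from −0.22 (KO-TRAMP, 10 weeks) to 0.05 (A537T-TRAMP, 30 weeks), and a gene-level count does not check the removal of 1 exon. The 8 seminal vesicle markers (Svs1 to Svs6 genes and Pate4) took at most 0.000459% of reads in WT-TRAMP at 10 weeks, 9.05% in library 5 and 1.25% in library 6 (A537T-TRAMP), 1.63% in library 9 (KO-TRAMP), 4.35% and 1.90% in libraries 10 and 12 (WT-TRAMP), and 5.45% and 2.65% in libraries 13 and 15 (A537T-TRAMP). The 8 neuroendocrine markers summed to 16229 and 10299 normalized counts in libraries 17 and 18 (KO-TRAMP, 30 weeks), with none at 0, against 301 in library 16 with 4 of 8 at 0 and 327 to 3228 in WT-TRAMP of that table, where library 10 was the highest. In such bulk tissue, fewer cells of a type and less RNA per cell cannot be told apart.

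The plot of values by library shows the 8 members that had a mean normalized count of at least 10 in every table and were tested. Per kilobase of exon, in WT-TRAMP at 10 weeks in the KO-TRAMP table, Phgdh stood highest at 535 ± 24.6 normalized counts per kb (SD, n = 3), then Atf4 at 455 ± 55.4, Asns at 253 ± 57.7 and Psat1 at 54.4 ± 3.62. Ddit3 (34.3 ± 1.35) and Atf5 (33.2 ± 2.41) lay within each other's spread, as did Chac1 (10.3 ± 5.51) and Trib3 (10.0 ± 0.530). In WT-TRAMP at 30 weeks, Phgdh (449 ± 65.3) and Atf4 (419 ± 71.0) were within each other's spread too, and the order of the others was the same except that Atf5 (53.6 ± 9.35) stood above Ddit3 (43.8 ± 3.77). Phgdh shares 44.8% of its 31-base words with the gene Gm7901, so its count could include reads of that copy.

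**Figure D1:**
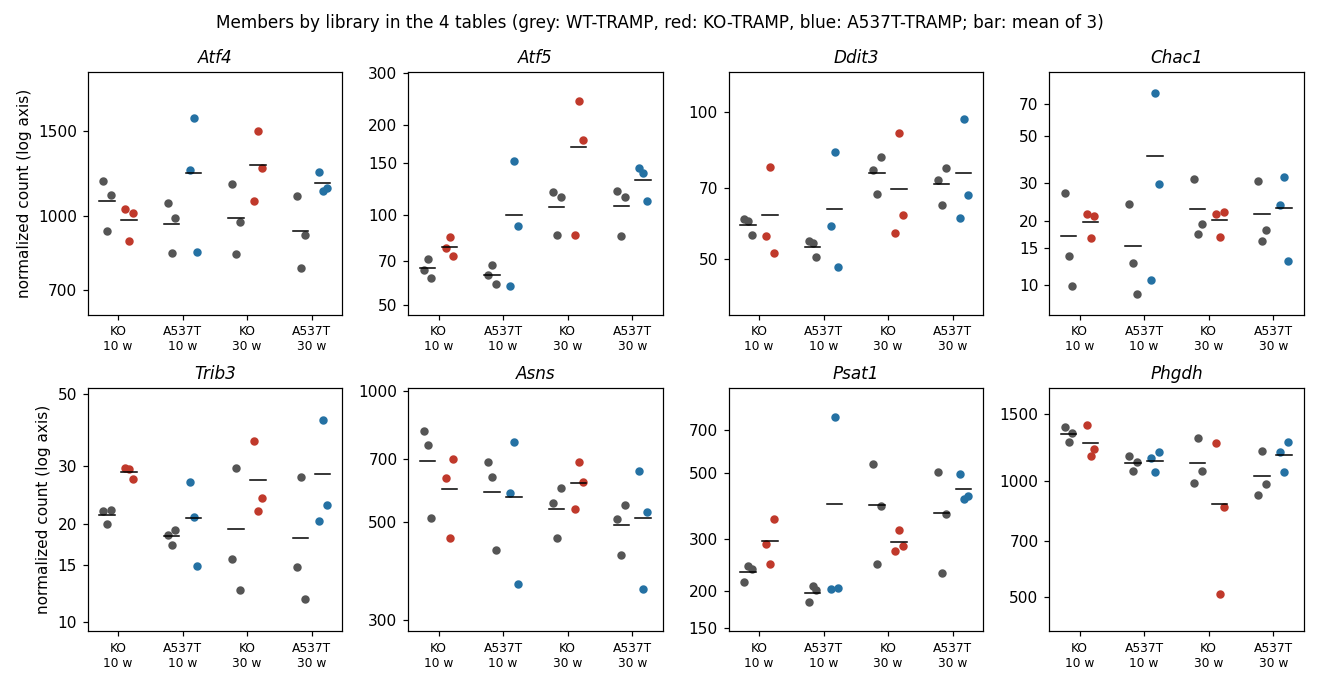
Normalized counts (log axis) of the 8 tested members in each library, by table; grey points are WT-TRAMP, red KO-TRAMP and blue A537T-TRAMP, and bars are means of 3. Most groups overlap; single libraries stand apart, such as Psat1 at 775 in 1 A537T-TRAMP library at 10 weeks against 183 to 208 in the other 5 libraries of that table.

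No member passed an adjusted p of 0.05 in any of the 4 comparisons with limma, nor with edgeR or DESeq2 on the recovered reads. At 10 weeks, the smallest adjusted p of a member was 0.749 in KO-TRAMP and 0.620 in A537T-TRAMP. The older mice gave 0.40 for KO-TRAMP and 0.684 for A537T-TRAMP. The background is as sparse: at 10 weeks 0.0129% of 15451 genes tested passed for KO-TRAMP and 0.00648% for A537T-TRAMP, and at 30 weeks 0.213% for KO-TRAMP and 0% for A537T-TRAMP. At an unadjusted p under 0.05, 1 member qualified, Atf4 in A537T-TRAMP at 30 weeks, where 1173 of 16261 genes (7.21%) did.

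The precision of the data sets what can be said of these differences. The 95% interval of the log2 difference lay inside a 2-fold change in either direction for 6 of the 8 tested members in KO-TRAMP at 10 weeks, for 4 in A537T-TRAMP at 10 weeks, for 3 in KO-TRAMP at 30 weeks and for 6 in A537T-TRAMP at 30 weeks. For Atf4 it did so in all 4 comparisons, and for Ddit3 and Asns as well. For Chac1 and Trib3, the least abundant of the tested members, the interval reached beyond 2-fold in each comparison.

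**Figure D2:**
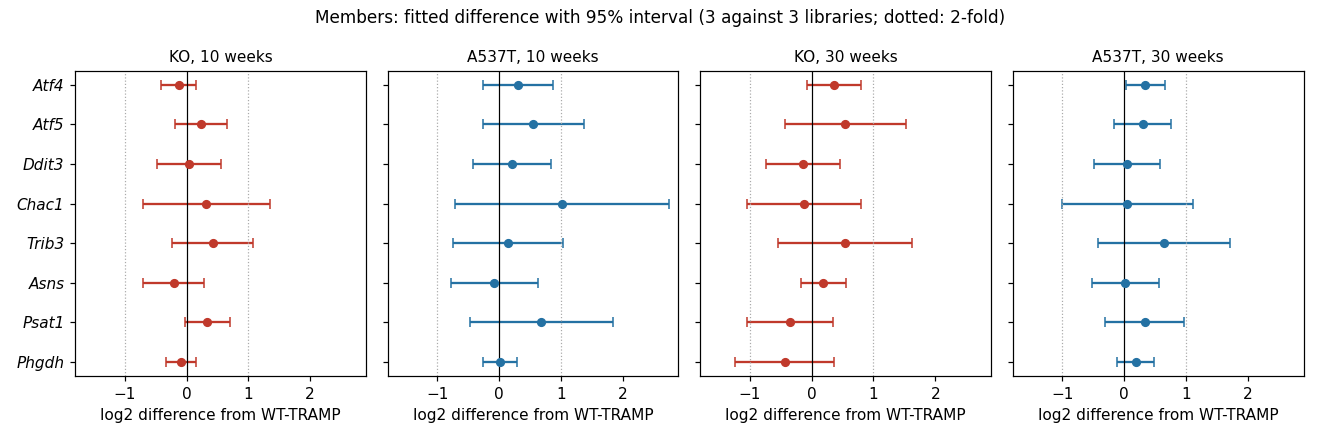
Log2 difference from WT-TRAMP with its 95% interval for the 8 tested members, 3 libraries against 3 in each panel; dotted lines mark a 2-fold change. Intervals cross 0 in every case except Atf4 in A537T-TRAMP at 30 weeks (0.02 to 0.66), which did not pass the adjusted threshold.

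Atf4, the central transcription factor of the response (chromosome 15, 80255184 to 80257541, plus strand), drew 725 to 2057 reads from each library. The normalized counts at 10 weeks were 1033, 887 and 1014 in KO-TRAMP and 1181, 927 and 1107 in WT-TRAMP. The groups overlapped, with a log2 difference of −0.13 (SE 0.12, limma adjusted p 0.883, exact permutation p 0.4). In A537T-TRAMP at 10 weeks they were 1244, 1596 and 838 beside 1062, 835 and 991, so that library 5 was the highest while library 6 lay near the WT-TRAMP minimum (log2 difference 0.31, SE 0.24, adjusted p 0.669). Without library 5 that difference was 0.09.

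At 30 weeks Atf4 was higher on average in both lines. KO-TRAMP held 1073, 1499 and 1255 normalized counts against 1164, 830 and 971, with 1 library inside the WT-TRAMP range (log2 difference 0.37, SE 0.18, adjusted p 0.40, exact p 0.2). A537T-TRAMP held 1235, 1126 and 1140 against 1098, 777 and 910, and there every library was above every WT-TRAMP library. This difference was 0.34 (SE 0.14, unadjusted p 0.0390, adjusted p 0.684), the exact two-sided permutation p was 0.1, the smallest that 3 against 3 allows, and it ranged from 0.22 to 0.47 when single libraries were left out. Atf4 was the only tested member without overlap in that comparison, beside 7.36% of all genes tested that were higher and 6.03% that were lower without overlap. The change of the KO-TRAMP difference between 10 and 30 weeks was 0.50 (SE 0.22, unadjusted p 0.0488, adjusted p 0.379).

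Atf5, a related factor that drives the mitochondrial unfolded protein response (chromosome 7, 44812256 to 44816658, minus strand), had 56 to 332 reads. In KO-TRAMP at 10 weeks its normalized counts were 77.3, 84.2 and 72.6, all above the 65.6, 71.2 and 61.7 of WT-TRAMP (log2 difference 0.23, SE 0.18, adjusted p 0.852, exact p 0.1). The A537T-TRAMP libraries of that age held 57.8, 151 and 91.7 against 62.7, 67.9 and 58.6, a difference of 0.56 (SE 0.35, adjusted p 0.620). The spread of the mutant group there was wide, since library 4 lay below all WT-TRAMP libraries and library 5 far above, and without library 5 the difference was 0.21.

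In KO-TRAMP at 30 weeks Atf5 split the group. Libraries 17 and 18 held 242 and 179 normalized counts, above the 120, 85.4 and 115 of WT-TRAMP, and library 16 held 85.4. The log2 difference was 0.55 (SE 0.40, adjusted p 0.517, exact p 0.4). Without library 16 it was 0.97 and passed the threshold (limma adjusted p 0.0463), where 3064 genes in all passed, and without library 17 it was 0.22. Libraries 17 and 18 are the 2 with the high neuroendocrine markers; the part of these in the Atf5 values was not tested. In A537T-TRAMP at 30 weeks Atf5 held 143, 138 and 112 against 120, 85.2 and 115, which overlap (log2 difference 0.30, SE 0.19, adjusted p 0.769).

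Ddit3, whose protein CHOP turns the prolonged response towards cell death (chromosome 10, 127290774 to 127296288, plus strand), had 42 to 124 reads and overlapped with WT-TRAMP in all 4 comparisons. Its log2 differences at 10 weeks were 0.04 (SE 0.23) for KO-TRAMP and 0.21 (SE 0.27) for A537T-TRAMP, and −0.14 (SE 0.25) and 0.05 (SE 0.23) at 30 weeks. The 10-week A537T-TRAMP value rests on library 5, since it was 0.0023 without it. The highest library of each mutant group stood above the WT-TRAMP maximum, at 10 weeks at 77.4 (KO-TRAMP) and 82.9 (A537T-TRAMP) and at 30 weeks at 90.4 and 96.6, and the lowest library of each stood below the WT-TRAMP minimum. The adjusted p-values were 0.785 or above.

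Chac1, which degrades glutathione (chromosome 2, 119351229 to 119354381, plus strand), had 9 to 72 reads. The KO-TRAMP libraries held 21.6, 16.6 and 21.1 normalized counts at 10 weeks, inside the WT-TRAMP span of 9.91 to 27.1 (log2 difference 0.32, SE 0.44, adjusted p 0.923). In A537T-TRAMP at 10 weeks they were 10.6, 79.6 and 29.8 against 24.1, 12.7 and 9.09, which gave the widest difference of any member, 1.02 (SE 0.74, adjusted p 0.646, exact p 0.3). It rests on library 5, since without it the difference was 0.32. At 30 weeks the differences were −0.13 (SE 0.38) in KO-TRAMP and 0.05 (SE 0.45) in A537T-TRAMP, and both signs changed when a single library was left out.

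Trib3, a pseudokinase that restrains ATF4 and AKT signalling (chromosome 2, 152337422 to 152344032, minus strand), had 11 to 35 reads. In KO-TRAMP at 10 weeks its normalized counts were 29.7, 29.4 and 27.6, all above the 21.9, 20.0 and 22.0 of WT-TRAMP, a ratio of means of 1.36. The log2 difference of 0.42 (SE 0.28) had an adjusted p of 0.826 and an exact p of 0.1, and it stayed between 0.38 and 0.45 without single libraries. At 30 weeks library 16 of KO-TRAMP held 36.0 and library 14 of A537T-TRAMP 41.7, the highest of their tables, and the differences were 0.54 (SE 0.45) in KO-TRAMP and 0.64 (SE 0.45) in A537T-TRAMP, with adjusted p-values of 0.558 and 0.788. Single libraries moved both widely. For KO-TRAMP, leaving out library 12, 16 or 11 gave 0.29, 0.33 and 0.88, and for A537T-TRAMP, leaving out library 14 or 11 gave 0.34 and 0.98. At 30 weeks the WT-TRAMP libraries themselves ranged from 12.5 to 29.8, and the lower values, 15.7 and 12.5, came from libraries 10 and 12, the WT-TRAMP libraries with seminal vesicle reads.

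Asns, which makes asparagine and carries the response element right before its RefSeq start (GENCODE span chromosome 6, 7675169 to 7693254, minus strand), had 296 to 944 reads. Its normalized counts in KO-TRAMP at 10 weeks were 632, 460 and 698 against 811, 751 and 513 in WT-TRAMP, which overlap (log2 difference −0.21, SE 0.21, adjusted p 0.888). The A537T-TRAMP group of that age held 585, 765 and 362 against 688, 637 and 433 (−0.08, SE 0.30, adjusted p 0.941). At 30 weeks the KO-TRAMP libraries held 537.1, 688 and 618 against 554, 462 and 598, a difference of 0.19 (SE 0.15, adjusted p 0.542). The A537T-TRAMP libraries held 656, 353 and 529 against 510, 421 and 547, a difference of 0.02 (SE 0.23, adjusted p 0.993). Its groups overlapped in each comparison, and the mean of the line was above WT-TRAMP only at 30 weeks.

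Psat1 and Phgdh catalyse consecutive steps of serine synthesis. Psat1 (chromosome 19, 15904678 to 15947337, minus strand) had 178 to 701 reads. In KO-TRAMP at 10 weeks its normalized counts were 289, 246 and 351, all above the 214, 244 and 237 of WT-TRAMP, though library 8 by a margin of about 2 counts. The log2 difference was 0.34 (SE 0.16, unadjusted p 0.0660, adjusted p 0.749, exact p 0.1), and it was 0.20 without library 9, the KO-TRAMP library with 1.63% seminal vesicle reads. In A537T-TRAMP at 10 weeks, 2 libraries held 203 and 204, inside the WT-TRAMP span of 183 to 208, while library 5 held 775. The difference of 0.69 (SE 0.50, adjusted p 0.646) was 0.04 without it.

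At 30 weeks Psat1 varied within WT-TRAMP itself. Libraries 10, 11 and 12 held 537.1, 247 and 389 normalized counts in the KO-TRAMP table, and libraries 10 and 12 are those with 4.35% and 1.90% seminal vesicle reads. KO-TRAMP held 274, 321 and 283, a difference of −0.35 (SE 0.29, adjusted p 0.554). Without libraries 10 and 12 it had the opposite sign, 0.24, with a single WT-TRAMP library left. A537T-TRAMP held 496, 409 and 418 against 506, 230 and 364, with overlap (0.33, SE 0.27, adjusted p 0.808). That difference was 0.034 without WT-TRAMP library 11 and 0.60 without library 10, and the KO-TRAMP one was −0.08 without library 10 and −0.64 without library 11. Library 14, with 409, had 0.000313% seminal vesicle reads; the part of such reads in the Psat1 values was not tested.

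Phgdh (chromosome 3, 98313170 to 98339990, minus strand) had 698 to 1587 reads and overlapped with WT-TRAMP in all 4 comparisons. At 10 weeks its normalized counts were 1398, 1161 and 1213 in KO-TRAMP against 1388, 1266 and 1339 (log2 difference −0.09, SE 0.10, adjusted p 0.906). The A537T-TRAMP libraries of that age held 1148, 1055 and 1188 against 1166, 1065 and 1121 (0.02, SE 0.11, adjusted p 0.965). At 30 weeks KO-TRAMP held 1257, 509 and 855 against 988, 1298 and 1060, where libraries 17 and 18 lay below all WT-TRAMP libraries and library 16 inside them. That difference was −0.44 (SE 0.33, adjusted p 0.523), and it ranged from −0.75 without library 16 to −0.10 without library 17. A537T-TRAMP held 1192, 1059 and 1264 against 920, 1201 and 980 (0.19, SE 0.13, adjusted p 0.788).

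The hormone genes were barely detected. Fgf21 (chromosome 7, 45613886 to 45615490, minus strand) had reads in 2 of 18 libraries only, 4 in library 17 and 2 in library 18, both KO-TRAMP at 30 weeks. Gdf15 (chromosome 8, 70629393 to 70632456, minus strand) had reads in 6 libraries, at most 9, and the highest values were 9.95 normalized counts in library 5 and 9.54 in library 14, both A537T-TRAMP. The others were 4.48 in library 10 of WT-TRAMP and 0.979 to 2.09 in libraries 8, 15 and 18. Both genes fell under the minimum mean of 10 and were not tested, and a library at 0 allows up to 3 reads, so that smaller changes were not detectable at this depth.

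By comparison, KO-TRAMP at 10 weeks had 5 tested members above and 3 below WT-TRAMP, with a median log2 difference of 0.14 beside −0.01 over all genes. Atf5, Trib3 and Psat1 were higher without overlap and none was lower, beside 5.77% of all genes that were higher and 6.26% that were lower without overlap. A537T-TRAMP at 10 weeks had 7 members above and 1 below, with a median of 0.26 beside −0.01, and no member without overlap, beside 6.92% of genes higher and 6.53% lower. Library 5 held the highest value of the table for 6 of the 8 members, namely Atf4, Atf5, Ddit3, Chac1, Asns and Psat1, and without it the median was 0.08. Summed marker levels were higher without overlap in KO-TRAMP at this age for smooth muscle, neuroendocrine cells and seminal vesicle. In A537T-TRAMP they were so for smooth muscle, fibroblasts, endothelium, adipocytes and seminal vesicle. The adipocyte sums there were near the floor, at 8.14 to 15.5 normalized counts against 0.803 to 7.07 in WT-TRAMP. The part of these markers in the members' values was not tested.

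At 30 weeks KO-TRAMP had 4 members above and 4 below WT-TRAMP, with a median of 0.03 beside 0.01, and none without overlap beside 10.8% of genes higher and 9.48% lower. A537T-TRAMP at 30 weeks had 8 of 8 tested members above WT-TRAMP, with a median of 0.24 beside 0.00 over all genes, although Asns, Ddit3 and Chac1 turned negative without single libraries, down to −0.18, −0.15 and −0.23. Summed marker levels in KO-TRAMP were higher without overlap for fibroblasts, macrophages and endothelium and lower for adipocytes and B cells. The B cell sums were low in both groups, at 10.2 to 13.6 normalized counts against 19.2 to 33.6 in WT-TRAMP. In A537T-TRAMP the levels were higher for fibroblasts and lower for adipocytes. The part of these markers was not tested here either. The counts of members above and below describe the 8 that passed the filter and were not tested as a set. Both lines share their WT-TRAMP libraries at each age, so they are not independent of each other. No member's difference changed between 10 and 30 weeks at the adjusted threshold in either line, and neither did any other gene (0% of 16431 genes for KO-TRAMP and 0% of 15941 for A537T-TRAMP); 1 member, Atf4 in KO-TRAMP, had an unadjusted p under 0.05, while 2146 (13.1%) and 1014 (6.36%) genes did.

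**Figure D3:**
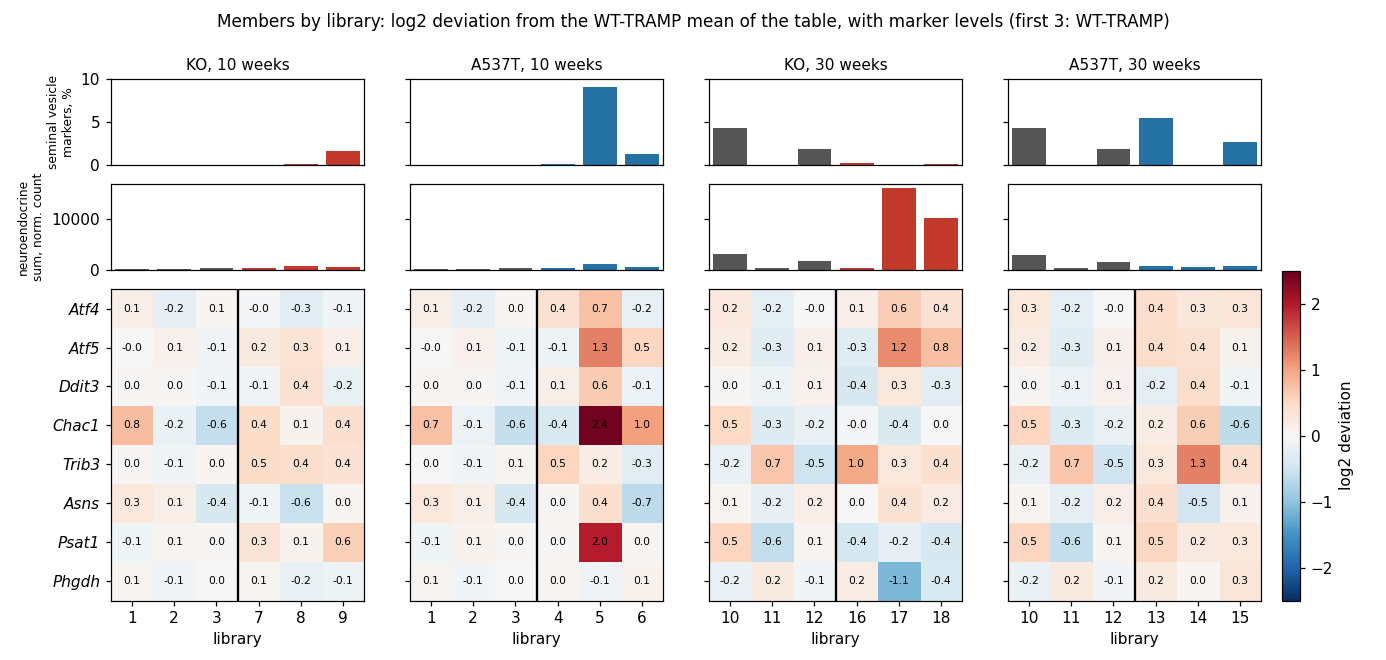
Log2 deviation of each tested member from the WT-TRAMP mean of its table (heat map; the first 3 columns of each panel are WT-TRAMP), below the share of reads from 8 seminal vesicle markers and the summed level of 8 neuroendocrine markers. Library 5 has the highest Chac1 and Psat1 and 9.05% seminal vesicle reads; libraries 17 and 18 have high Atf5, low Phgdh and the highest neuroendocrine sums.

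Within groups the members did not move as 1 block. Over 18 libraries, as deviations from the group means, Pearson's r was above 0 for 17 of 28 pairs, with a median of 0.28, and the points share library, depth and tissue composition. Without library 5 it was above 0 for 13 of 28 pairs, with a median of −0.059, so the positive median rests on that library. The closest pairs were Atf4 with Psat1 (0.74), Atf4 with Asns (0.69) and Chac1 with Psat1 (0.67). With library 5 left out, Atf4 with Asns was at 0.58 and Atf4 with Psat1 at 0.56 over 17 libraries, the 2 highest, while Chac1 with Psat1 fell to 0.23. Phgdh ran against the transcription factors, at −0.76 with Atf5, −0.66 with Ddit3 and −0.48 with Atf4.

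**Figure D4:**
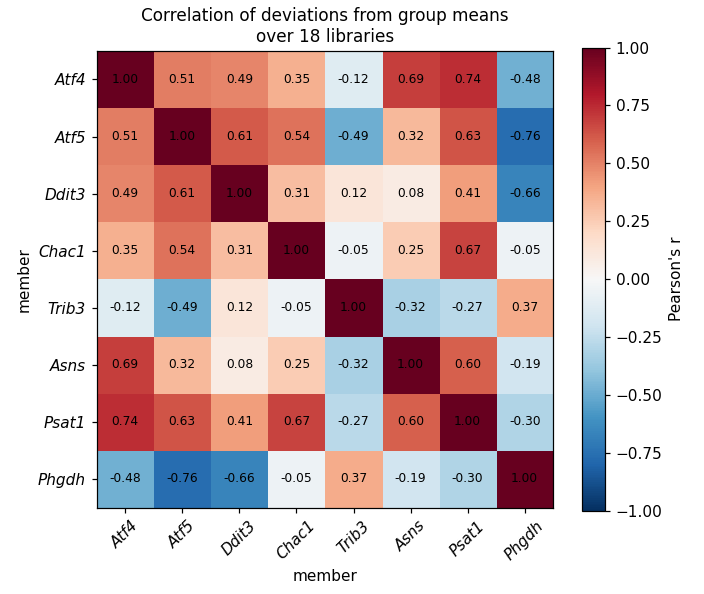
Pearson's r between the tested members over 18 libraries, computed on log2 deviations from group means. Atf4, Asns and Psat1 correlate at 0.60 to 0.74, while Phgdh is negative with Atf4, Atf5 and Ddit3.

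Among 9122 genes with a mean of at least 100 in every table, those most like each member by the same measure were the following. Each r is among the highest over 9122 genes, so high values arise from the search itself. All 18 libraries were used, and the part of library 5, where Psat1 was 1.97 log2 above the WT-TRAMP mean, was not tested. Psat1 was nearest to Shmt2, the mitochondrial serine hydroxymethyltransferase and itself a gene of the serine and one-carbon pathway (r = 0.95), then to Clcn5 and Atp2c1. Atf4 was nearest to Uap1, an enzyme of UDP-N-acetylglucosamine synthesis (0.94), then Atp2a2 and Ctcf, and Atf5 to the spermine oxidase gene Smox (0.93), then Zfp606 and Ppp1r12a. Phgdh was nearest to Dpp4 (0.95), Pdlim1 and Serinc3, and Asns to Selenot (0.90), Clpp and Mdh1. For Ddit3 they were Cep89 (0.89), Ppme1 and Utp20, for Chac1 Lrrc47 (0.87), Mettl17 and Cic, and for Trib3 Pip4k2c (0.88), Birc2 and Traf2.

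The wider pathway was followed in 7 gene lists, and no gene of any list passed the adjusted threshold in any comparison with limma. At an unadjusted p under 0.05 there were 17 of 79 tested list genes (KO-TRAMP) and 5 of 79 (A537T-TRAMP) at 10 weeks, and 14 of 80 and 18 of 79 at 30 weeks, beside 6.64% and 7.89% of all genes tested at 10 weeks and 13.5% and 7.21% at 30 weeks. The shares of list genes for A537T-TRAMP at 10 weeks and KO-TRAMP at 30 weeks were thus near the background. Endoplasmic reticulum chaperones alone made up 10 of the 17 in KO-TRAMP at 10 weeks and 10 of the 18 in A537T-TRAMP at 30 weeks. Of 54 differences of list genes named by the rule, 31 moved by over 1.5 times when a single library was left out, and 3 of these changed sign. On recovered reads edgeR called none of the list genes. DESeq2 called 4 endoplasmic reticulum chaperones in KO-TRAMP at 10 weeks (Hspa5, Hsp90b1, Hyou1 and Pdia4) and no list gene in A537T-TRAMP at 10 weeks. At 30 weeks it called Slc7a5, Lars and Hspe1 in KO-TRAMP and Hspa5, Calr and Manf in A537T-TRAMP. Over all genes it called 81 of 15451 (KO-TRAMP) and 148 of 15438 (A537T-TRAMP) at 10 weeks. At 30 weeks it called 805 of 16900 and 165 of 16261. The 3 calls among 80 list genes in KO-TRAMP at 30 weeks were not above that share. Upstream of ATF4, the eIF2 kinases and phosphatase subunits (9 genes, with OMA1 and DELE1 that relay mitochondrial damage) had median log2 differences at 10 weeks of −0.12 (KO-TRAMP) and −0.06 (A537T-TRAMP), then −0.06 and −0.00 at 30 weeks. Oma1, the mitochondrial protease of that relay, had log2 differences of 0.18 (SE 0.16) and 0.26 (SE 0.20) at 10 weeks. Eif2ak3, the kinase PERK of the endoplasmic reticulum, was at 732, 466 and 506 normalized counts in KO-TRAMP at 30 weeks, all under the 754, 788 and 769 of WT-TRAMP (−0.47, SE 0.18, adjusted p 0.365), after −0.19 (SE 0.12) at 10 weeks. Also named by the rule were Eif2s1 (KO-TRAMP at 30 weeks, 0.30, SE 0.13), Eif2ak2, the kinase PKR (A537T-TRAMP, −0.46 at 10 weeks and −0.19 at 30 weeks), and Ppp1r15b (A537T-TRAMP at 30 weeks, 0.13).

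The amino acid and one-carbon enzymes (11 genes) had median log2 differences at 10 weeks of 0.16 (KO-TRAMP) and 0.32 (A537T-TRAMP) and of −0.10 and 0.13 at 30 weeks. Mthfd2, the mitochondrial folate enzyme, was at 349, 648 and 323 normalized counts in A537T-TRAMP at 10 weeks against 210, 162 and 270, with no overlap (0.99, SE 0.31, adjusted p 0.600). Gpt2, mitochondrial alanine transaminase, was at 1047, 1159 and 1042 in KO-TRAMP at 10 weeks against 732, 809 and 969 (0.38, SE 0.12, adjusted p 0.716). Mthfd1l was lower (−0.34, SE 0.19) there. Pycr1 in A537T-TRAMP at 10 weeks was at −0.43 (SE 0.27), and at −0.16 without library 5. At 30 weeks the named genes were Got1 (0.36, SE 0.30, and 0.076 without library 17) and Cth, the cystathionine gamma-lyase gene (−0.82, SE 0.25, adjusted p 0.327), in KO-TRAMP, and Aldh18a1 (0.30, SE 0.16) and Mthfd1l (−0.15, SE 0.18) in A537T-TRAMP.

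The amino acid transporters (9 genes) had median log2 differences at 10 weeks of 0.22 (KO-TRAMP) and 0.19 (A537T-TRAMP) and of −0.34 and 0.15 at 30 weeks. Slc7a5, the leucine importer LAT1, was at 390, 436 and 486 normalized counts in KO-TRAMP at 10 weeks against 105, 261 and 308 (1.09, SE 0.36, adjusted p 0.716). The 10-week A537T-TRAMP libraries held 346, 1059 and 423 against 89.2, 223 and 263 (1.62, SE 0.53, adjusted p 0.600). At 30 weeks it was at 301, 147 and 213 in KO-TRAMP, below the 469, 560 and 523 of WT-TRAMP (−1.28, SE 0.27, adjusted p 0.215), and at 587, 649 and 585 in A537T-TRAMP against 462, 547 and 511 (0.26, SE 0.11, adjusted p 0.684). The groups did not overlap in any of the 4, with opposite directions in KO-TRAMP at the 2 ages. For KO-TRAMP at 30 weeks, the difference passed the threshold with DESeq2 (adjusted p 0.00363), as did 805 of 16900 genes. Its partner chain Slc3a2 was at −0.18 (SE 0.09) in KO-TRAMP at 10 weeks. The Slc3a2 counts there, 660, 703 and 675, all lay below the 740, 757 and 810 of WT-TRAMP. Slc1a5 (A537T-TRAMP at 10 weeks, −0.32, SE 0.18), Slc38a2 (KO-TRAMP at 30 weeks, 0.29, SE 0.10) and Slc6a9 (A537T-TRAMP at 30 weeks, −0.25, SE 0.16) were the others named.

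The cytosolic aminoacyl-tRNA synthetases (13 genes with the tRNA exporter Xpot) had medians of 0.04 and 0.15 at 10 weeks in KO-TRAMP and A537T-TRAMP, and of 0.03 and 0.21 at 30 weeks. In A537T-TRAMP at 30 weeks 12 of 13 were above WT-TRAMP and 6 were so without overlap, beside 7.36% of all genes; Wars, for tryptophan, was at 2569, 2447 and 2563 against 2195, 1961 and 2057 (0.29, SE 0.08, adjusted p 0.580). Wars was also at 0.73 (SE 0.33) in A537T-TRAMP at 10 weeks, where library 5 held 3453 normalized counts, Xpot there at −0.17 (SE 0.35), and Yars at 30 weeks at −0.07 (SE 0.11). In KO-TRAMP, Cars (0.31, SE 0.15) and Iars (−0.21, SE 0.19) were named at 10 weeks, and Lars (−0.36, SE 0.10) and Xpot (0.92, SE 0.42) at 30 weeks. Xpot was at 764, 2456 and 1605 in libraries 16, 17 and 18, so it split the group in the same way as Atf5 and overlapped with WT-TRAMP. Without library 16 its difference was 1.38 (limma adjusted p 0.0211), where 3064 of 16950 genes passed.

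The other stress effectors (13 tested of 14) had median log2 differences at 10 weeks of −0.12 (KO-TRAMP) and 0.13 (A537T-TRAMP) and of 0.11 and 0.15 at 30 weeks. Ddit4, an inhibitor of mTORC1, was at 201, 219 and 237 in KO-TRAMP and at 238, 236 and 226 in A537T-TRAMP at 30 weeks, above WT-TRAMP in both tables (152 to 172 and 150 to 169). These log2 differences were 0.41 (SE 0.14, adjusted p 0.351) and 0.53 (SE 0.12, adjusted p 0.436). Stc2, a secreted glycoprotein, was at 33.3, 32.3 and 35.8 in KO-TRAMP at 10 weeks against 114, 60.0 and 56.2 (−1.08, SE 0.31, adjusted p 0.716). Atf3 was lower in A537T-TRAMP at 10 weeks without overlap (−0.72, SE 0.22, adjusted p 0.600) and Herpud1 in KO-TRAMP at 30 weeks (−0.68, SE 0.28, adjusted p 0.369). Vldlr was at 0.80 (SE 0.41, KO-TRAMP) and 1.66 (SE 0.59, A537T-TRAMP) at 10 weeks, and at −0.53 (SE 0.64) in A537T-TRAMP at 30 weeks.

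Mitochondrial chaperones and proteases (10 genes) had median log2 differences at 10 weeks of 0.03 (KO-TRAMP) and −0.03 (A537T-TRAMP) and of 0.05 and 0.06 at 30 weeks. Hspe1 was at 451, 464 and 496 in KO-TRAMP at 30 weeks against 325, 374 and 299 (0.50, SE 0.13, adjusted p 0.297 with limma and 0.0417 with DESeq2). In the other line, A537T-TRAMP, Hspe1 was at −0.22 (SE 0.25) at 10 weeks. Its partner Hspd1 was at 0.17 (SE 0.14) in KO-TRAMP at 10 weeks and 0.23 (SE 0.11) in A537T-TRAMP at 30 weeks. The proteases Afg3l2 (at 30 weeks, −0.22 for KO-TRAMP and −0.04 for A537T-TRAMP) and Clpp (0.20 in A537T-TRAMP at 10 weeks) and the chaperone Dnaja3 (−0.07 in KO-TRAMP at 10 weeks) completed the genes named.

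Endoplasmic reticulum chaperones (15 genes), which answer to the unfolded protein response beside ATF4, had the same direction throughout the list in 2 comparisons. In KO-TRAMP at 10 weeks 15 of 15 were above WT-TRAMP, with a median of 0.39 and 8 without overlap, beside 5.77% of all genes; Pdia4 was at 5144, 3978 and 4505 against 2724, 3089 and 3144 (0.60, SE 0.12, adjusted p 0.574 with limma and 0.00185 with DESeq2). In A537T-TRAMP at 30 weeks 15 of 15 were above, with a median of 0.32 and 10 without overlap, beside 7.36% of all genes; Manf was at 1333, 1244 and 1423 against 879, 843 and 883 (0.62, SE 0.09, adjusted p 0.201 with limma and 3.93e-06 with DESeq2). In KO-TRAMP at 30 weeks 13 of 15 were below, with a median of −0.42 and 2 without overlap, beside 9.48% of all genes; Dnajb9 was at −0.56 (SE 0.19) and Calr at 0.22 (SE 0.13). In A537T-TRAMP at 10 weeks 11 of 15 were above with a median of 0.11; Hyou1 was at 0.34 (SE 0.16) and Sdf2l1 at −0.05 (SE 0.19). In KO-TRAMP at 30 weeks the 6 fibroblast markers summed to 16798 to 22476 normalized counts against 4276 to 4867 in WT-TRAMP and the 6 macrophage markers to 2224 to 2763 against 1037 to 1279. In KO-TRAMP at 10 weeks the 8 smooth muscle markers summed to 8213 to 13090 against 4648 to 7692, and in 30-week A537T-TRAMP the 6 fibroblast markers to 6684 to 11114 against 4070 to 4639, with no marker of these lists at 0. The 8 seminal vesicle markers in 10-week KO-TRAMP summed to 99.8 to 180136 against 21.0 to 54.0. Up to 1 of them was at 0 in a KO-TRAMP library and up to 4 in a WT-TRAMP library. The 8 neuroendocrine markers in 10-week KO-TRAMP summed to 414 to 760 against 83.9 to 396, with up to 4 at 0 in either group. The part of these cells in the list values was not tested.

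**Figure D5:**
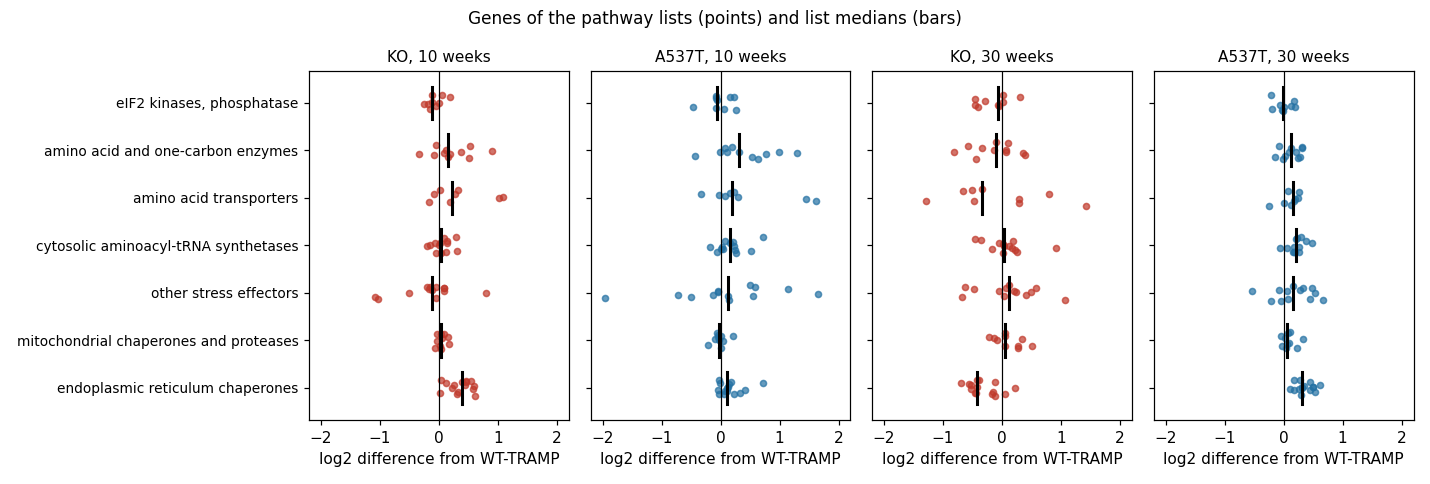
Log2 difference from WT-TRAMP of every tested gene (points) of the 7 pathway lists, with list medians (bars), in the 4 comparisons. The endoplasmic reticulum chaperones sit above 0 in KO-TRAMP at 10 weeks (median 0.39) and A537T-TRAMP at 30 weeks (0.32) and below it in KO-TRAMP at 30 weeks (−0.42); no single gene passed the adjusted threshold with limma.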

How the data were processed

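Total RNA libraries (TruSeq, NovaSeq) of 18 mice were processed by the authors with Trim Galore 0.4.1, cutadapt 1.18, STAR 2.7.3a and Salmon, strand-specifically, on GRCm38 with GENCODE annotation, then tximport and DESeq2 1.26. The authors deposited 4 tables of normalized counts, a signal in which each estimated count was scaled by 1 size factor for its library. In every library 100% of values were whole multiples of 1 step (tolerance 1e-06), so whole estimated counts, called reads here, were recovered. Their tables of fold changes and s-values were not used. Column headers carry library numbers; the 3 columns found in both tables of an age were taken as WT-TRAMP. Between 30.9% and 37.6% of WT-TRAMP genes had identical estimated counts in both tables, so these counts depend on the table and tables were not mixed.

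Main test: limma 3.58.1 (R 4.3.3; trend) on log2(normalized count + 1), genes with a table mean of at least 10, Benjamini-Hochberg threshold 0.05, two-sided; fold changes of low genes are understated. Interactions used 12 libraries with an intercept per table. Single members were also tested by exact permutation. Intervals are 95% limma intervals. P-values measure the spread between mice. Alternatives were pseudocounts of 0.5 and 5, no filter, a mean of at least 50, TMM, limma without trend, edgeR 4.0.16 and DESeq2 1.42.0 on recovered reads, and each library left out; 2 were added after seeing the data, the seminal vesicle level as a covariate and no libraries over 1% of such reads. Tests were run on simulated data first. Members, lists and rules were chosen with earlier results of these data known. Named genes were the members, Elac2, per list and comparison the genes past the threshold or otherwise the higher and the lower gene with the smallest p (mean at least 50), and 3 genes most like each member. Gene positions are GRCm38 from a GENCODE release earlier than the authors'.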

Additional observations from a re-analysis of the deposited data

Results flagged for a closer look

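In KO-TRAMP, 2 of the genes named from the pathway lists lay above WT-TRAMP without overlap at 10 weeks and below it without overlap at 30 weeks. Slc7a5 had log2 differences of 1.09 (SE 0.36) and −1.28 (SE 0.27), and the test of the change between ages gave −2.37 (limma adjusted p 0.210). Cth had 0.90 (SE 0.38) and −0.82 (SE 0.25), with a change of −1.72 (limma adjusted p 0.258). Of all 79 list genes tested at both ages 3 showed this pattern, the other one being Creld2 of the endoplasmic reticulum list, named after its values were seen, beside 134 of 15252 genes (0.879%). Neither change passed the threshold, and no member met the same criterion.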

How the results depend on the processing

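No paired analysis was possible because the columns carry no replicate number. No member passed an adjusted p of 0.05 under any alternative except Atf5 in KO-TRAMP at 30 weeks without library 16, so the count of members past the threshold there ranged from 0 to 1 when single libraries were left out. Apart from leaving out libraries, the planned settings changed no member's direction.

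The count over all genes moved more. DESeq2 called 81 (KO-TRAMP) and 148 (A537T-TRAMP) genes at 10 weeks, 805 and 165 at 30 weeks, and 389 and 49 for the change between ages, and edgeR 0 and 0 at 10 weeks and 15 for 30-week KO-TRAMP. With a mean of at least 50 both counts at 10 weeks were 0, and with a pseudocount of 0.5 that of A537T-TRAMP was 0. Without a trend at 30 weeks limma called 15 for KO-TRAMP and 1 for A537T-TRAMP, and 4 for the KO-TRAMP change, which was 1 with a pseudocount of 5 or no filter. Without single libraries the counts were 1 to 9 (KO-TRAMP) and 0 to 65 (A537T-TRAMP) at 10 weeks, 0 to 3064 (KO-TRAMP) and 0 to 145 (A537T-TRAMP) at 30 weeks, and 0 to 1944 (KO-TRAMP) and 0 to 20 (A537T-TRAMP) for the change. With the seminal vesicle level as a covariate they were 1 and 0 at 10 weeks, 0 for 30-week KO-TRAMP and 1 for the KO-TRAMP change, and without libraries over the seminal vesicle limit 1 and 0 at 10 weeks and 0 for 30-week KO-TRAMP.

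Leaving out single libraries turned the sign of small differences. In A537T-TRAMP at 10 weeks the ranges were −0.32 to 0.22 for Asns, −0.021 to 0.065 for Phgdh, −0.045 to 0.36 for Trib3, −0.19 to 0.0064 for Elac2, −0.23 to 0.12 for Sdf2l1 and −0.46 to 0.26 for Xpot. In A537T-TRAMP at 30 weeks they were −0.18 to 0.27 for Asns, −0.23 to 0.40 for Chac1, −0.15 to 0.18 for Ddit3, −0.059 to 0.11 for Elac2 and −1.10 to 0.24 for Vldlr. In KO-TRAMP they were −0.13 to 0.16 for Ddit3 at 10 weeks and −0.29 to 0.12 for Chac1 at 30 weeks.

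With the seminal vesicle level as a covariate, signs turned in A537T-TRAMP at 10 weeks, where that level and the line cannot be told apart since every A537T-TRAMP library was above every WT-TRAMP library: Atf4 −0.060, Atf5 −1.35, Ddit3 −0.35, Chac1 −2.66, Psat1 −1.88, Elac2 0.41, Oma1 −0.32, Eif2ak2 0.53, Mthfd2 −0.30, Pycr1 1.141, Slc7a5 −0.87, Slc1a5 0.51, Wars −0.74, Xpot 0.44, Vldlr −1.45, Hspe1 1.183, Hyou1 −0.050 and Sdf2l1 0.59. They also turned for Phgdh (0.056) and Vldlr (−0.042) in KO-TRAMP at 10 weeks. There too every KO-TRAMP library was above every WT-TRAMP library, so that level and the line cannot be told apart. Signs turned as well for Asns (−0.012) in A537T-TRAMP at 30 weeks. Without libraries over the limit they turned in A537T-TRAMP at 10 weeks for Atf5 (−0.12), Chac1 (−0.39), Asns (0.026), Elac2 (0.12), Pycr1 (0.11), Xpot (0.39), Hspe1 (0.37) and Sdf2l1 (0.31), with 1 A537T-TRAMP library left and assumed to vary like the others. In KO-TRAMP at 30 weeks, with library 11 as the 1 WT-TRAMP library left, they turned for Chac1 (0.20), Trib3 (−0.15), Psat1 (0.24) and Calr (−0.0087). In A537T-TRAMP at 30 weeks, with 1 library a group and no test, they turned for Asns (−0.26), Phgdh (−0.18), Elac2 (−0.038), Mthfd1l (0.17), Hspd1 (−0.024) and Afg3l2 (0.0099). The change between ages turned for Psat1 in KO-TRAMP (0.039) and Chac1 in A537T-TRAMP (1.34). The causes were not tested.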
